A study of Mus musculus with 7 samples.

Results

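Long L1Md loci are the near full-length copies, in the mouse genome, of the L1 elements that RepeatMasker names L1Md, the L1 lineage that is youngest in Mus. An L1 element is a retrotransposon without long terminal repeats. Its RNA is both the message for its proteins, an RNA-binding protein and an enzyme with endonuclease and reverse transcriptase activity, and the template from which new DNA copies are made. Young copies of the A, T and Gf subfamilies can still move, whereas the F, F2 and F3 names belong to older copies. In the fetal testis, germ cells lose most of their DNA methylation after they reach the gonad, and L1 transcripts are then held back by repressive chromatin, by new DNA methylation and by the piRNA pathway, in which small RNAs guide PIWI proteins to transposon RNA.

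Members were taken from a table of read counts per repeat copy, by 2 properties that do not depend on any count. The element name starts with L1Md_ and the end minus the start of the copy is at least 5000 bases. Of the 3494995 loci in the table, 126672 carry an L1Md name, 13417 of these are long and 113255 are shorter. L1Md_T gives 5058 long loci, L1Md_F2 3946, L1Md_A 3303, L1Md_F3 843, L1Md_F 156 and L1Md_Gf 111. Their median lengths in the same order are 6065, 5726, 5996, 5607, 5232 and 5416 bases. Around the limit, 501 loci lie within 100 bases above it and 544 within 100 bases below it.

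RNA-Seq libraries were made from testes of C57BL/6 embryos at embryonic day 14.5, each from 1 pair of testes. Of the 7 libraries, 3 are labelled WT, from wild-type embryos, and 4 are labelled Mutant, from Glis3 zf5/zf5 homozygotes. The zf5 allele is a deletion over exon 4 of Glis3, a zinc finger transcription factor gene that is expressed in fetal germ cells, and the deletion is carried by every cell of the embryo. Ribosomal RNA was removed, without any enrichment of polyadenylated RNA, and introns, nascent RNA and other transcripts that lack a tail are sequenced too. Libraries do not keep the strand of the RNA, and whole testes were used, so that fewer cells of a type and less RNA per cell cannot be told apart.

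No genome sequence of the build was used here, but some of the copies hold the annotated start of a gene, and for those the sequence can be read from RefSeq (GRCm38.p6, the build called mm10). RefSeq places the window around a gene start inside 24 of the long loci, for 23 genes, and in 23 of the 24 windows the gene reads in the direction opposite to the L1 element. In 22 of these 23 the start lies within 1500 bases of the 5′ end of the element. The 250 bases upstream of 4 such starts are shown, chosen among 8 windows that share a run of bases so that it can be seen in 3 subfamilies, and they say nothing of how alike the other windows are. They are written 5′ to 3′ on the strand of the gene, the plus strand in all 4, and the capitals mark a run of 26 bases, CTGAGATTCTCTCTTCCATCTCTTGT, the longest run that at least 8 of the 24 windows share.
Fut8, start within an L1Md_T locus: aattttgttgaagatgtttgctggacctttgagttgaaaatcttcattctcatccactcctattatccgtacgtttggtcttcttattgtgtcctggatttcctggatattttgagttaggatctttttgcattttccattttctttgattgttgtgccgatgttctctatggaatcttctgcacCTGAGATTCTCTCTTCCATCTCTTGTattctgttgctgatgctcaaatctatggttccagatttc
4930519L02Rik, start within an L1Md_F2 locus: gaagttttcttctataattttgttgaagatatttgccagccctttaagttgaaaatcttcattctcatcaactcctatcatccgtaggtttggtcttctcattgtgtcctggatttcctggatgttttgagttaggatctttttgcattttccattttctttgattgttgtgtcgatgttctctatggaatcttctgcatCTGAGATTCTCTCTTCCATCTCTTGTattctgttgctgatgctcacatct
Gm29904, start within an L1Md_F2 locus: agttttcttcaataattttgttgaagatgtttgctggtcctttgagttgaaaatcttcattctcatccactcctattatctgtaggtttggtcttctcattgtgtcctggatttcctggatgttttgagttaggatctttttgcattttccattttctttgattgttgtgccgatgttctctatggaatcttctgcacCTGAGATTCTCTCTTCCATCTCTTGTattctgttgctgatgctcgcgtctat
Smn1, start within an L1Md_A locus: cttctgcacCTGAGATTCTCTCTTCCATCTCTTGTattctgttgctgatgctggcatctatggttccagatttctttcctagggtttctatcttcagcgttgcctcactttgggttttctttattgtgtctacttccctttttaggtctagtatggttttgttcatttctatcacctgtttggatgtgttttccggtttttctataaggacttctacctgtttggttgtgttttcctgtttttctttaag
These windows are at chr12:77409891-77410140, chr3:143030364-143030613, chr15:61288191-61288440 and chr13:100122955-100123204. The run occurs in 8 of the 24 windows, 5 in L1Md_F2, 2 in L1Md_T and 1 in L1Md_A. It begins between 689 and 1199 bases from the 5′ end of the element. Among all 32851 RefSeq windows of the same length, searched on both strands, 11 (0.0335%) hold it. The run was picked because at least 8 of the 24 windows share it, so that its presence in these loci was fixed by that choice. The L1Md_F2 copy that holds the start of 4930519L02Rik had 1, 0 and 4 reads in the WT libraries and 0, 4, 0 and 3 in the Mutant libraries, and the other 3 copies had at most 3 reads in any library.

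Glis3 itself was measured as FPKM (fragments per length of transcript and size of library, over the whole gene model) in the gene table of the same libraries. It was 7.63, 6.89 and 2.91 in the libraries labelled WT and 3.86, 3.26, 2.9 and 2.66 in the Mutant libraries. The library labelled WT replicate 3 therefore lies at the Mutant level, and results that rest on it are also given without it. The counts of the repeat table sum to between 3454317 and 4670830 per library, of which long L1Md loci hold between 13798 and 17816. A single locus of another element, an MMVL30-int copy, took from 0.072% to 7.02% of a library. Summed FPKM of 10 germ cell genes was 1729, 1280 and 869.8 in the WT libraries and 804, 743, 786 and 704 in the Mutant libraries, and 3 of the 10 genes were lower in every Mutant library than in any WT library, a state found in 7.59% of all genes tested, with 7.31% higher in the same way. The germ cell sum was thus lower in every Mutant library, and its part in the L1 results below was not tested. Summed FPKM of 6 Sertoli cell genes reached from 230.2 to 354 in WT and from 301 to 368 in Mutant libraries. In 5 fetal Leydig cell genes it reached from 1596 to 2658 and from 2498 to 3073, and 2 of the 5 were higher in every Mutant library. Sums for 4 interstitial and 4 endothelial genes overlapped between the groups, as did those for 3 macrophage genes, 5 red blood cell genes, 4 genes of the mesonephros and ducts and 3 granulosa cell genes. Among these lists, 1 macrophage gene was higher and 2 mesonephros genes were lower in every Mutant library. The mesonephros sum lay between 1.14 and 3.19 FPKM, with Pax2 and Wnt9b under 0.5 FPKM in every library. The granulosa cell sum lay between 6.25 and 9.5 FPKM, with Foxl2 under 0.5 FPKM in every library.

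Reads in long L1Md loci were mostly in copies of the F2 name. Counts were summed per subfamily and given as CPM, the count per 1000000 counts of a library in the repeat table. L1Md_F2 reached from 1826 to 2442 CPM, L1Md_T from 728 to 908, L1Md_A from 432 to 577 and L1Md_F3 from 416 to 524. L1Md_F and L1Md_Gf reached from 36.6 to 63 and from 12.3 to 19.9 CPM. Per Mb of locus length, L1Md_F2 (80.9 to 108 CPM per Mb) and L1Md_F3 (86.6 to 109) were highest, L1Md_F lay between 44.3 and 76.1, and L1Md_A, L1Md_T and L1Md_Gf lay between 20.3 and 32.9 in every library. The last 3 subfamilies overlap in their levels per Mb and their order is not resolved. Since reads that map to several places were left out by the authors, the youngest and most alike copies lose most reads, and levels per Mb are not levels of RNA. Of the 13417 loci, 2314 had no read in any library, 7942 had a mean of under 1 read per library, 3161 had a mean of at least 1 and 223 a mean of at least 10. In L1Md_F2, 44.6% of loci had a mean of at least 1 read, against 12.4% in L1Md_A and 11% in L1Md_T. The 10 loci with most reads held 9.84% of all reads in long L1Md loci, and between 15.1% in L1Md_F2 and 52% in L1Md_Gf within a subfamily.

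Over all long loci together, 3814, 3584 and 3830 CPM were counted in the WT libraries and 4402, 4210, 4276 and 4481 CPM in the Mutant libraries. Each Mutant library lay above each WT library, and the means differed by more than the spread within the groups (3743 ± 138, SD, n = 3, against 4342 ± 122, n = 4). L1Md_F2 gave 2073, 1826 and 2130 CPM in WT and 2393, 2334, 2353 and 2442 CPM in Mutant libraries. L1Md_F3 gave 421, 416 and 448 CPM in WT and 505, 513, 495 and 524 CPM in Mutant libraries, and L1Md_T gave 790.0, 728 and 764 CPM in WT and 865, 815, 881 and 908 CPM in Mutant libraries. In these 3 subfamilies, and in L1Md_F, every Mutant library lay above every WT library, which held for 5.3% of all element names. L1Md_A (473, 564 and 432 CPM in WT, 577, 492, 471 and 529 in Mutant libraries) and L1Md_Gf overlapped between the groups.

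**Figure D1:**
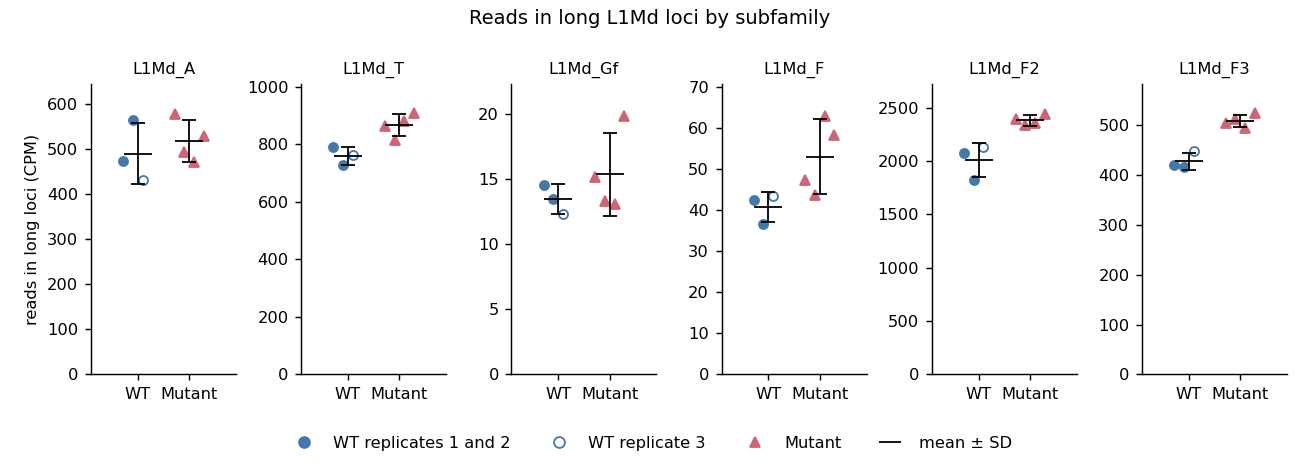
Reads in long L1Md loci per subfamily, in CPM (y axes start at 0 and differ between panels). Each point is 1 library (WT n = 3, Mutant n = 4), the open circle is the library labelled WT replicate 3, and bars give mean ± SD. In L1Md_F2, F3, T and F all Mutant libraries lie above all WT libraries, and in L1Md_A and L1Md_Gf they overlap.

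Each sum was then tested as 1 feature among all element names of the table, with edgeR's quasi-likelihood test on library totals and a threshold of 0.1 for the Benjamini-Hochberg adjusted p. None of the 6 long subfamilies passed. The log2 fold change (Mutant over WT) was 0.24 ± 0.06 (SE) for L1Md_F2 (adjusted p = 0.136), 0.25 ± 0.06 for L1Md_F3 (adjusted p = 0.157) and 0.19 ± 0.06 for L1Md_T (adjusted p = 0.407). It was 0.38 ± 0.13 for L1Md_F (adjusted p = 0.439), 0.08 ± 0.09 for L1Md_A and 0.20 ± 0.17 for L1Md_Gf. Unadjusted p-values of the first 4 of these ranged from 0.000625 to 0.0129. Of all 868 element names, 3 (0.346%) passed, all higher in Mutant libraries. The calls for L1Md_F2 and L1Md_F3 depended on the settings. Without the library labelled WT replicate 3, L1Md_F2 (0.29, adjusted p = 0.0625) and L1Md_F3 (0.28, adjusted p = 0.0891) passed, and with DESeq2 both passed as well (adjusted p = 0.0295 and 0.0214).

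Outside genes, long loci of 3 of the 6 subfamilies passed as higher in Mutant libraries, as did 6.68% of all element names, and inside genes none did. Each locus was placed by its midpoint in GENCODE M21 genes, leaving out pseudogenes and genes of the GENCODE type TEC. Loci inside only these are counted as outside genes. Of the long loci, 10365 (77.3%) lie outside genes, 1924 inside a gene on the other strand and 1128 inside a gene on its strand. Since the libraries do not keep the strand, reads of introns and of the element cannot be told apart in either class inside genes. Outside genes, long L1Md_F2 loci had 608, 596 and 780.3 CPM in WT and 1082, 891, 1063 and 1165 CPM in Mutant libraries. All 4 Mutant libraries were above the highest WT library, which is WT replicate 3. The log2 fold change was 0.67 ± 0.10 (SE, adjusted p = 0.0036), and 0.80 (adjusted p = 0.000768) without that library. This call held in each alternative that was run, with adjusted p between 0.000768 and 0.0427.

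Long L1Md_F3 loci outside genes had 144, 172 and 195 CPM in WT and 256, 225, 257 and 275 CPM in Mutant libraries, a log2 fold change of 0.57 ± 0.10 (SE, adjusted p = 0.00992). Long L1Md_T loci outside genes had 307, 311 and 342 CPM in WT and 445, 354, 467 and 483 CPM in Mutant libraries, a log2 fold change of 0.45 ± 0.10 (adjusted p = 0.0228). Both rose with the groups apart, as did 24.8% of all element names outside genes, and L1Md_T had only a narrow gap between the highest WT and the lowest Mutant library. Without the library labelled WT replicate 3, L1Md_F3 (0.68, adjusted p = 0.0033) and L1Md_T (0.50, adjusted p = 0.0226) passed too. L1Md_T did not pass without Mutant replicate 4 (0.40, adjusted p = 0.109). L1Md_A outside genes, another of the young subfamilies, had 185, 282 and 181 CPM in WT and 287, 204, 235 and 274 CPM in Mutant libraries. Here the groups overlapped, since WT replicate 2 lay near the top, and the log2 fold change was 0.21 ± 0.15 (adjusted p = 0.613). Without WT replicate 2 it was 0.45 (adjusted p = 0.0888). L1Md_F (0.54 ± 0.18, adjusted p = 0.182) and L1Md_Gf (0.30 ± 0.24, adjusted p = 0.697) did not pass, and L1Md_F passed without Mutant replicate 2 (0.67, adjusted p = 0.0441).

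Inside genes none of the 12 sums passed with edgeR or DESeq2 and none had an unadjusted p under 0.05 with edgeR, where 0% of all element names on the other strand of a gene and 0.241% on the strand of a gene passed as higher. L1Md_F2 on the other strand of a gene had 1155, 956 and 1053 CPM in WT and 1004, 1131, 985 and 989 CPM in Mutant libraries, a log2 fold change of -0.04 ± 0.07 (SE, adjusted p = 0.921). On the strand of a gene it was 0.04 ± 0.07 (adjusted p = 0.898). Over the 6 subfamilies, fold changes on the other strand lay between -0.07 and 0.12 on the log2 scale and those on the strand of a gene between -0.19 and 0.55, the last in L1Md_Gf with at most 1.88 CPM in a library. The difference between the positions was tested as the log2 ratio of counts outside to counts inside genes within each library, a test added after these values had been seen. Over all long loci this ratio was -0.99, -0.66 and -0.58 in WT and -0.12, -0.55, -0.08 and 0.01 in Mutant libraries. Mutant libraries were higher, without overlap, by 0.56 (two-sided exact permutation test, p = 0.0571, and 0.133 adjusted over the 6 subfamilies and their sum). The smallest p this test can give is 0.0286, and L1Md_F2 (0.69) and L1Md_F3 (0.59) gave the same p-values, while L1Md_T (0.48, exact p = 0.0857) overlapped.

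**Figure D2:**
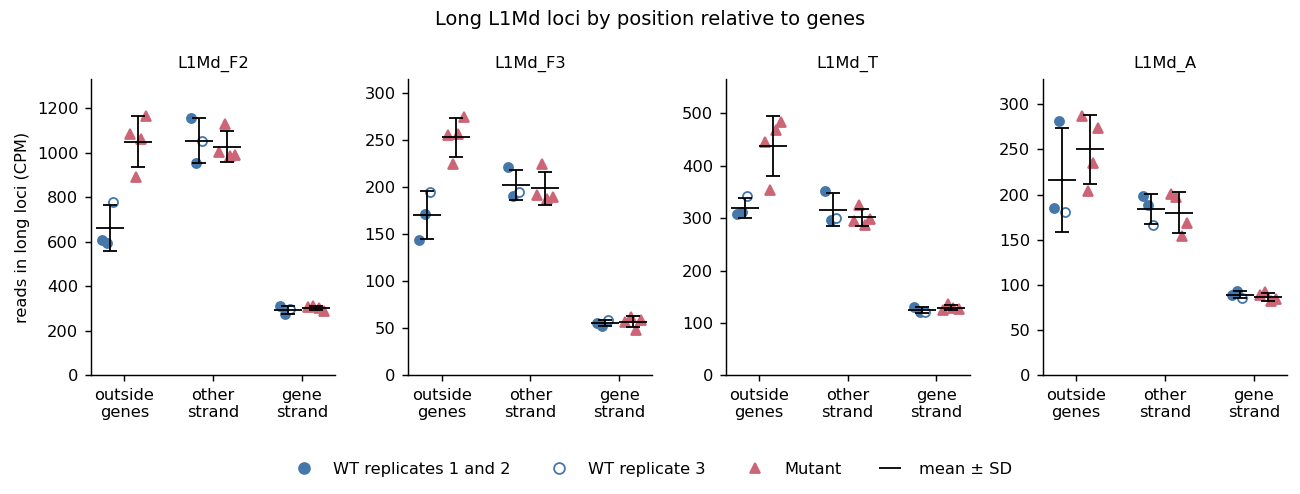
Reads in long loci of 4 subfamilies, in CPM, by position: outside genes, inside a gene on its other strand, and inside a gene on its strand. Points are libraries (WT n = 3, Mutant n = 4, open circle WT replicate 3) and bars mean ± SD. Outside genes the groups are apart in L1Md_F2, F3 and T and overlap in L1Md_A, and inside genes they overlap in all 4.

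Long L1Md loci were not alone in this. Among all element names summed outside genes, 56 of 838 passed as higher in Mutant libraries and 0 as lower, and their median log2 fold change was 0.21. The same medians were -0.04 over 849 names on the other strand of a gene and -0.00 over 829 names on the strand of a gene. The 6 long L1Md sums outside genes had a median of 0.50 with 3 called, and the 6 sums of shorter L1Md loci a median of 0.56 with 5 called. Other L1 names (Lx, L1_Mus, L1_Mur, L1_Mm and L1VL) had a median of 0.39 with 25 of 32 called. In the old L2 and MIR elements, which can no longer move, all 8 names were above 0 outside genes with a median of 0.18 and 0 called, and the SINE names (B1, B2, B3, B4, ID, PB1 and RSINE1) had a median of 0.04 with 0 of 25 called. Counts outside genes made up 11.3%, 11.7% and 10.9% of the table in WT and 12.9%, 12.1%, 12.7% and 13.3% in Mutant libraries. Within these counts, long L1Md loci took 1.12%, 1.19% and 1.41% in WT and 1.64%, 1.41%, 1.64% and 1.69% in Mutant libraries. WT replicate 3 and Mutant replicate 2 were nearly level on this share. The part that the higher counts outside genes in general have in the L1 difference was not tested.

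**Figure D3:**
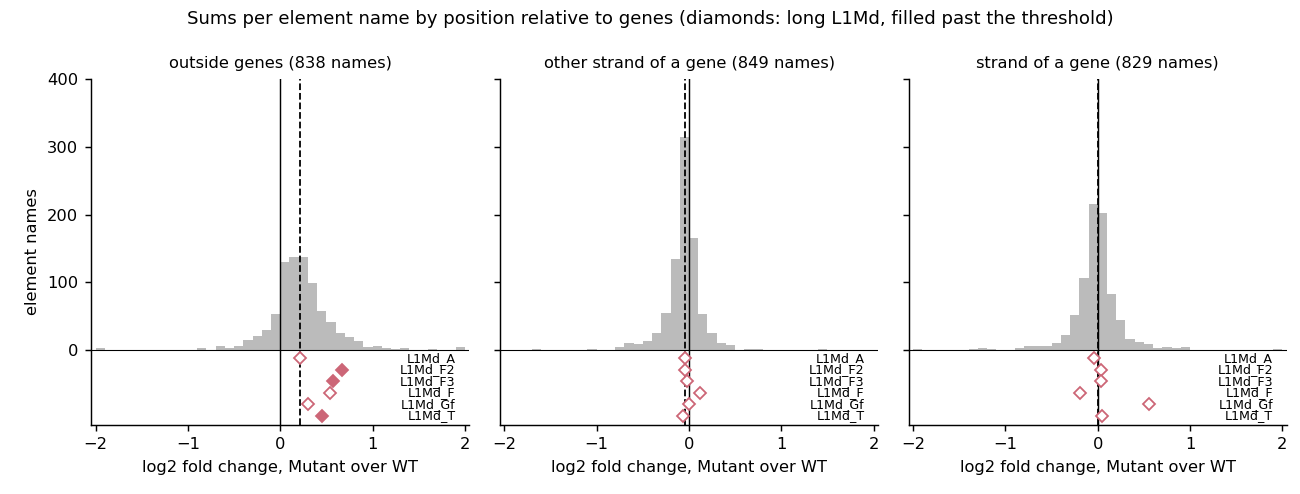
Log2 fold change (Mutant over WT) of counts summed per element name, in 3 panels by position relative to genes. Grey bars count element names (values beyond 2 in either direction are placed in the end bars), the dashed line is their median, and diamonds below the axis are the 6 long L1Md subfamilies, filled where the adjusted p is under 0.1. Outside genes the median is 0.21 and the filled diamonds are L1Md_F2, F3 and T, and inside genes the medians are -0.04 and -0.00 with no filled diamond.

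The difference outside genes lay both in loci with few reads (a mean of under 1) and in loci averaging 1 read or more. The share of long loci outside genes with at least 1 read was 28.7%, 25.4% and 31.6% in WT and 38.7%, 30.1%, 37.1% and 42.3% in Mutant libraries. Mutant replicate 2 lay within the WT range. This share depends on depth, and the deepest library is WT replicate 1. Loci outside genes with a mean of under 1 read held 464, 515 and 543 CPM in WT and 872, 667, 833 and 966 CPM in Mutant libraries, a log2 ratio of the means of 0.72. In loci outside genes averaging 1 read or more it was 0.43, with 810.1, 876 and 991 CPM in WT and 1238, 1040, 1244 and 1284 CPM in Mutant libraries. Both classes were higher in every Mutant library. In L1Md_T the difference lay in the loci with few reads (log2 ratio 0.68) and was small in the others (0.12), where the groups overlapped, and when sums were limited to loci averaging 1 read or more the call for L1Md_T was lost (adjusted p = 0.912), as was that for L1Md_F3 (0.44, adjusted p = 0.23). Inside genes, the loci with few reads were higher in Mutant libraries too, with 140.2, 146 and 141 CPM in WT and 183, 148, 179 and 187 CPM in Mutant libraries (log2 ratio 0.29). In L1Md_F3 this ratio was 1.09 inside genes and 1.16 outside, without overlap in either, and in L1Md_F2 it was 0.69 inside, where the groups overlapped, and 1.02 outside. The share of loci inside genes with reads overlapped between the groups over all subfamilies, and in L1Md_F3 it was 60.5%, 58.6% and 67.3% in WT and 79.6%, 72.2%, 77.2% and 79% in Mutant libraries, without overlap.

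**Figure D4:**
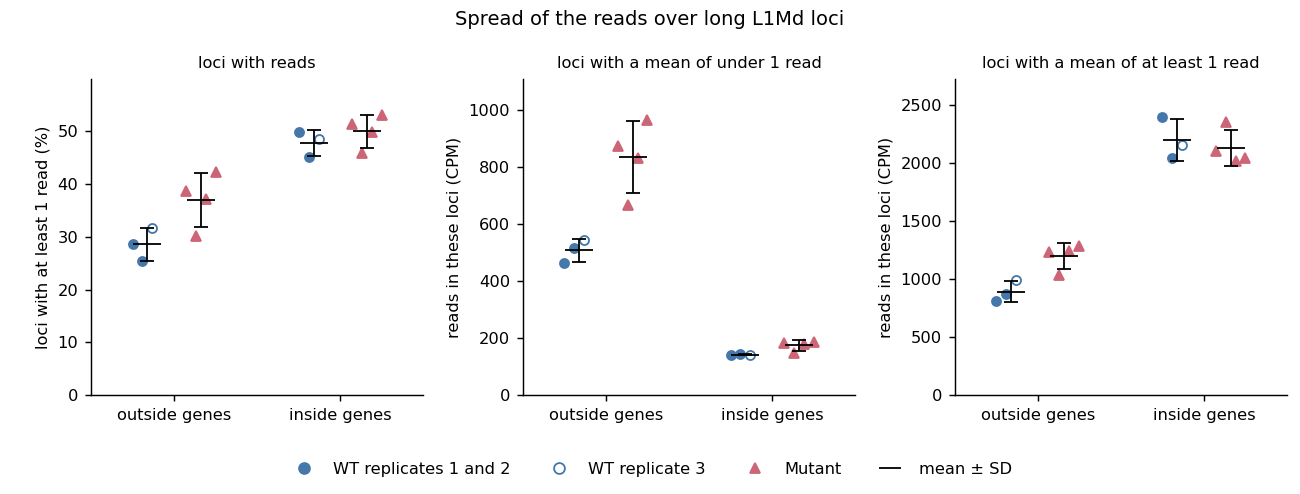
Share of long L1Md loci with at least 1 read (left, in percent) and CPM in loci with a mean of under 1 read (middle) and of at least 1 read (right), outside and inside genes. Points are libraries (WT n = 3, Mutant n = 4, open circle WT replicate 3) and bars mean ± SD. Outside genes both classes of loci hold more reads in each Mutant library than in any WT library.

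The difference was present on autosomes and on both sex chromosomes. Long loci outside genes on autosomes had 23.7, 25.9 and 28.6 CPM per Mb in WT and 39, 31.4, 38.7 and 41.7 CPM per Mb in Mutant libraries. On the X chromosome they had 12.5, 12.6 and 14 CPM per Mb in WT and 20.5, 17.5, 18.4 and 21.4 CPM per Mb in Mutant libraries. On the Y chromosome WT libraries had 1.93 to 2.56 and Mutant libraries 3.99 to 4.9 CPM per Mb. The groups were apart on each. The ratio of the X chromosome to autosomes lay between 0.474 and 0.557 in all 7 libraries, and it overlapped between the groups.

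Whether long loci differed from shorter ones depended on the settings. The log2 ratio of counts in long to counts in shorter L1Md loci over all subfamilies was -1.26, -1.14 and -1.18 in WT and -1.16, -1.16, -1.13 and -1.12 in Mutant libraries, a difference of 0.05 (two-sided exact permutation test, p = 0.114). In L1Md_F2 the ratio was higher by 0.10 in Mutant libraries (exact p = 0.0571, and 0.4 adjusted over 7 ratios), and the other subfamilies differed by -0.12 to 0.16 with exact p-values of 0.4 or more. In loci averaging 1 read or more, the ratio was higher in Mutant libraries by 0.15 over all subfamilies, by 0.21 in L1Md_F2 and by 0.17 in L1Md_F3, each at the smallest p the test can give (exact p = 0.0286, not adjusted). The same p was reached without the locus with most reads of each class (0.06 over all subfamilies and 0.12 in L1Md_F2) and for L1Md_F2 copies of 6000 bases or more (0.15). A locus can reach a mean of 1 read through the group where it is high. Ratios under that filter therefore only describe the loci that passed it. Outside genes, the same ratio was -0.94, -0.75 and -0.83 in WT and -0.86, -0.89, -0.80 and -0.81 in Mutant libraries, a difference of -0.00 (exact p = 1). For L1Md_F2 outside genes it was 0.14 (exact p = 0.114) and for L1Md_A -0.32 (exact p = 0.143). The sums of shorter loci outside genes rose in L1Md_F2 (log2 fold change 0.53 ± 0.07, SE, adjusted p = 0.0036), L1Md_F3 (0.62 ± 0.09, adjusted p = 0.0036) and L1Md_A (0.57 ± 0.11, adjusted p = 0.0168), while the long L1Md_A loci did not pass. These ratios do not depend on how libraries are scaled.

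Single loci were tested with edgeR over the 464695 loci of the table averaging 1 read or more. In that test 0.0213% of loci passed as higher and 0.0594% as lower in Mutant libraries. Of the 3161 long L1Md loci tested, 1 passed in each direction, and none with DESeq2. Without adjustment, 260 had a p under 0.05 as higher and 39 as lower, against 2.5% and 2.23% of all loci tested. A locus can pass the read filter through the group where it is high, so that counts over tested loci only describe them. Of 1937 tested long loci outside genes, 232 were higher in every Mutant library than in any WT library and 8 lower, and of 1224 inside genes 78 were higher and 24 lower. Over all tested loci of the table these shares were 3.05% and 3.11%.

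The long locus that passed as lower is an L1Md_F3 copy at chr7:81404905-81410129 on the plus strand, inside an intron of Cpeb1, an RNA-binding protein that controls poly-A tails of stored mRNAs, on its other strand. It had 33, 14 and 22 reads in WT and 7, 5, 4 and 6 reads in Mutant libraries, with no overlap and a log2 fold change of -1.75 ± 0.38 (SE, adjusted p = 0.00888). It did not pass without WT replicate 1 (-1.54, adjusted p = 0.374). Cpeb1 mRNA itself was 12.6, 7.64 and 7.37 FPKM in WT and 4.59, 5.19, 5.92 and 5.56 FPKM in Mutant libraries (log2 fold change -0.70 ± 0.18, limma adjusted p = 0.173), so that host and locus were both low in the Mutant libraries. The locus that passed as higher is an L1Md_F2 copy at chr5:81291196-81297390 on the minus strand, inside Adgrl3, an adhesion receptor gene, on its other strand. Its reads were 22, 16 and 19 in WT and 30, 43, 35 and 28 in Mutant libraries, with a log2 fold change of 1.12 ± 0.27 (adjusted p = 0.063). This call was lost without any of the 3 WT libraries and without Mutant replicate 2 or 3 (adjusted p from 0.162 to 0.533).

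Among the 223 loci with a mean of at least 10 reads, 5 were higher and 10 lower in every Mutant library. Over all loci averaging 1 read or more, 3.05% were higher and 3.11% lower in the same way. The median log2 fold change of the 223 was -0.03, against 0.02 over all loci tested. Of these 223, 30 lie outside genes. In CPM, which corrects for depth, the other 4 loci that were higher in every Mutant library were an L1Md_F2 copy on the strand of Nexmif (chrX:104132459-104138415; 6, 12 and 14 reads in WT, 14, 14, 18 and 18 in Mutant libraries), an L1Md_T copy opposite to the neurokinin receptor gene Tacr3 (chr3:134862439-134868597) and 2 copies outside genes. These are an L1Md_F2 copy at chr10:81731449-81737629, and the L1Md_F3 copy with the most reads of its subfamily at chr3:59763928-59770781, with 216, 271 and 282 reads in WT and 264, 251, 269 and 296 in Mutant libraries. None of the 4 passed (log2 fold changes 0.32 to 0.84, adjusted p from 0.855 to 0.98). The lowest fold changes after the Cpeb1 locus were in L1Md_F2 copies inside Alms1, a centrosome protein gene, on its strand (chr6:85657154-85662332; 41, 43 and 35 reads in WT, 20, 19, 13 and 22 in Mutant libraries; log2 fold change -0.84 ± 0.26, adjusted p = 0.554) and opposite to Nars2, a mitochondrial tRNA synthetase gene (chr7:96993786-96999899; 45, 34 and 33 reads in WT, 10, 25, 18 and 16 in Mutant libraries; -0.83 ± 0.27, adjusted p = 0.648). Alms1 mRNA was 11.9, 12.6 and 9.6 FPKM in WT and 9.18, 9.11, 8.51 and 8.09 FPKM in Mutant libraries, and Nars2 mRNA overlapped between the groups. L1Md_T copies opposite to Vps50 (chr6:3579071-3585249, -0.73 ± 0.36) and to Glcci1 (chr6:8538243-8544483, -0.67 ± 0.35) were also lower without passing.

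The loci with the most reads of each subfamily mostly lie in genes. For L1Md_F2 this is a copy opposite to Zfand6 (chr7:84624877-84630111), with 346, 295 and 329 reads in WT and 155, 196, 264 and 247 in Mutant libraries (log2 fold change -0.31 ± 0.16, adjusted p = 0.98). In CPM each Mutant library lay below each WT library, whereas Zfand6 mRNA overlapped (97.6 to 111 FPKM in WT, 105 to 112 in Mutant libraries). For L1Md_T it is a copy at chr13:9832021-9838665 with its midpoint outside genes, which overlaps an exon of Gm24187 and had 96, 199 and 224 reads in WT and 158, 66, 298 and 125 in Mutant libraries. These counts varied more within the groups than between them. For L1Md_A it is a copy opposite to Fam19a2 (chr10:123308927-123314196; 162, 79 and 118 reads in WT, 144, 110, 102 and 96 in Mutant libraries). Copies opposite to Adamts17 (L1Md_F, chr7:66943420-66948835) and Phkb (L1Md_Gf, chr8:85977995-85983030) led the small subfamilies with at most 26 reads in a library, and the groups overlapped in all 3 of these.

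L1Md_A varied between libraries of the same label. The ratio of L1Md_A to L1Md_F2 reads in long loci outside genes, chosen after its values were seen, was 0.304, 0.473 and 0.232 in WT and 0.265, 0.229, 0.221 and 0.235 in Mutant libraries. WT replicates 1 and 2 stood highest, and WT replicate 3 lay among the Mutant libraries. Without the 10 loci with most reads of each subfamily the order at the top was the same, with 0.358, 0.602 and 0.269 in WT and 0.29, 0.261, 0.239 and 0.252 in Mutant libraries. The counts behind WT replicate 2 were 1086 reads in L1Md_A, from 690 loci, and 2295 in L1Md_F2. In shorter loci outside genes the ratio lay between 0.093 and 0.114 in all libraries, with no such order. The ratio of L1Md_T to L1Md_F2 in long loci was 0.506, 0.522 and 0.438 in WT and between 0.397 and 0.439 in Mutant libraries.

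Genes that silence L1 elements were followed in the gene table, from a list of 43 genes. Of these 41 had a mean of at least 0.5 FPKM and were tested with limma on log2(FPKM + 0.5) over 13988 genes, where 0.00715% passed as lower. None of the 41 passed the threshold of 0.05, while 21 had an unadjusted p under 0.05, against 17% of all genes tested. Their median log2 fold change was -0.47, against 0.01 over all genes tested. Without the library labelled WT replicate 3, 18 of the 41 passed, all lower in Mutant libraries, against 3.99% of 14019 genes lower and 1.16% higher in the same fit. That library was set apart by its level of Glis3, a gene expressed in germ cells. It lies at the Mutant level in many of these genes too, so that leaving it out widens the difference and the 18 calls are no separate support.

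In the piRNA pathway all 18 tested genes were on the lower side, at a median of -1.09 on the log2 scale. The authors had reported Ddx4, Piwil1, Piwil2, Piwil4, Mael, Tdrd1, Tdrd5 and Tdrd9 as reduced in these libraries, and measured select genes by qPCR. The direction of the genes they named was therefore known in advance. Ddx4, a germ cell RNA helicase, was 102, 94.7 and 53.1 FPKM in WT and 39.8, 33.6, 42.2 and 34.9 FPKM in Mutant libraries (log2 fold change -1.08 ± 0.21, SE, limma adjusted p = 0.136, and 0.00391 without WT replicate 3). Tdrkh, a Tudor protein that helps to trim piRNAs (-0.84 ± 0.15), and Pld6, a mitochondrial nuclease that cuts piRNA precursors (-0.62 ± 0.13), were likewise lower in every Mutant library, and passed without WT replicate 3 (adjusted p = 0.00643 and 0.0311). The other genes had groups that overlapped, mostly because WT replicate 3 lay at the Mutant level. Mael, a piRNA factor, was 67.1, 128 and 18.8 FPKM in WT and 30.6, 18.2, 15.7 and 12.9 FPKM in Mutant libraries. Piwil4, the PIWI protein that enters the nucleus and directs DNA methylation of L1 copies, was 2.62, 11.2 and 0.268 FPKM in WT and 1.64, 0.369, 0.312 and 0.277 FPKM in Mutant libraries. Piwil2, the cytoplasmic PIWI protein of fetal germ cells, was 22.5, 25.8 and 7.02 FPKM in WT and 5.59 to 10.9 FPKM in Mutant libraries. For Mael and Piwil4, as for the ratio of L1Md_A to L1Md_F2, WT replicate 2 was highest, followed by WT replicate 1 and Mutant replicate 1. This was seen after the values were known and has no test. Some other piRNA genes share this order, but Ddx4, Fkbp6 and Gpat2 were highest in WT replicate 1. In Tdrkh and Pld6, WT replicate 3 lay above Mutant replicate 1. Tdrd1, Tdrd5 and Tdrd9 had log2 fold changes of -1.27 ± 0.50, -1.34 ± 0.60 and -1.49 ± 0.83, and Piwil1 stayed at or under 0.615 FPKM. Germ cells are the main source of these transcripts, and Ddx4, Mael and Tdrd1 are also in the germ cell sum given above, whose part in these values was not tested.

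**Figure D5:**
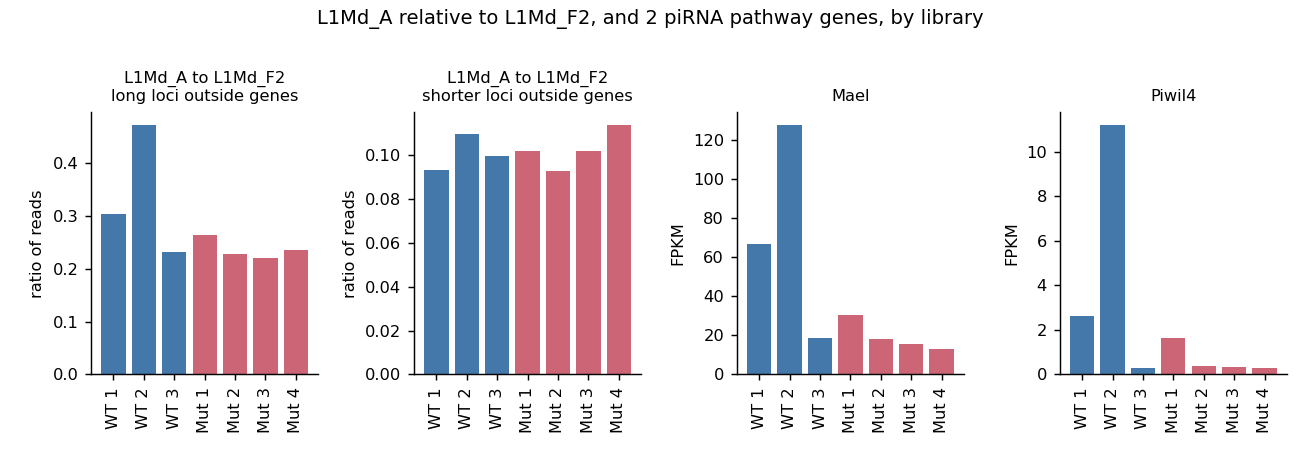
Ratio of L1Md_A to L1Md_F2 reads in long and in shorter loci outside genes, and FPKM of Mael and Piwil4, by library (bars, WT blue and Mutant red, y axes from 0). The ratio in long loci is highest in WT replicates 1 and 2 (0.304 and 0.473), as are both genes, while the ratio in shorter loci is between 0.093 and 0.114. Both genes were chosen after their values were seen, and not all piRNA genes have the same order of libraries.

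Of 6 genes of DNA methylation, 5 had a fold change below 0, with a median of -0.06. Dnmt3l, the cofactor of new DNA methylation in germ cells, was 0.883, 7.35 and 0.0754 FPKM in WT and 1.95, 0.424, 0.0813 and 0.0826 FPKM in Mutant libraries, and its fold change rested on WT replicate 2 (log2 fold change -0.98 with it and 0.07 without it). Morc1, a germ cell silencing factor, was also highest in WT replicate 2, with 11.1, 26.6 and 1.05 FPKM in WT and 8.05, 2.3, 0.795 and 0.94 FPKM in Mutant libraries. Dnmt3l and Morc1 had both been reported by the authors as significantly reduced in these libraries, so that the direction of both was known in advance. Dnmt1, Dnmt3a and Dnmt3b overlapped, with log2 fold changes between -0.08 and -0.00. Uhrf1, which brings the maintenance enzyme to newly copied DNA, was 45, 39.2 and 44.6 FPKM in WT and 54.6, 52.4, 47.9 and 45.5 FPKM in Mutant libraries (0.22 ± 0.08, adjusted p = 0.244).

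Genes of heterochromatin and of the HUSH complex, which deposit or read methylation of histone H3 at L1 copies, had smaller fold changes. All 11 were on the lower side (median log2 fold change -0.22, against 0.01 over all genes tested). Of these, 5 were lower in every Mutant library, as were 7.59% of all genes tested. The 5 genes were the histone methyltransferase genes Setdb1 (-0.23 ± 0.07), Ehmt2 (-0.31 ± 0.12) and Suv39h2 (-0.26 ± 0.06), Pphln1 of the HUSH complex (-0.30 ± 0.10), and Morc2a (-0.22 ± 0.08), which acts with that complex. Setdb1 was 49, 43 and 41 FPKM in WT and 38.3, 38.4, 36.5 and 36.9 FPKM in Mutant libraries, and Suv39h2 was 16.4, 14.8 and 15.5 FPKM in WT and 12.8, 12.6, 12.8 and 13.2 FPKM in Mutant libraries. The groups were apart but close, and none of these 5 passed the threshold with or without WT replicate 3, while Mphosph8 of the HUSH complex passed without it (-0.69, adjusted p = 0.00643). Of 6 other restriction factors, 3 had a fold change below 0, with a median of 0.06. The largest rise was in Apobec3 (0.66 ± 0.28, limma adjusted p = 0.288), where the groups overlapped. Zc3hav1, an antiviral RNA-binding protein, was higher in every Mutant library (0.20 ± 0.07, adjusted p = 0.239), and Samhd1 and Tex19.1 passed as lower without WT replicate 3 (-0.46 and -1.02, adjusted p = 0.0239 and 0.0115).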

How the data were processed

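The authors aligned the reads of 7 libraries to mm10 with TopHat2 (version 2.0.12, from the submitters' processing notes), counted uniquely mapped reads per RepeatMasker copy with HTSeq and deposited these raw counts. Reads of near-identical copies are therefore missing, and reads of an intron that holds a copy are counted as the copy. The authors' gene table, made with Cuffquant and Cuffnorm, holds deposited FPKM. In both headers the names of WT replicate 3 and Mutant replicate 1 are joined, and columns were taken by number. From the counts, loci averaging 1 read or more were tested with edgeR 4.0.16 (quasi-likelihood, TMM factors), and sums per element name, whole and by position in GENCODE M21 genes, with edgeR on library totals, both at a Benjamini-Hochberg adjusted p of 0.1. Genes averaging 0.5 FPKM or more were tested with limma 3.58.1 on log2(FPKM + 0.5) at 0.05, a scale that understates the change of low genes. Ratios were compared with exact permutation tests. R 4.3.3, Python 3.11.15, bedtools 2.31.1 and DESeq2 1.42.0, an alternative, were used. The tests were tried on simulated data with 200 changed features each, at a spread that was set and not taken from these data. For loci and sums, changes were set only in features with a mean of at least 10 reads. The simulated loci were fitted on library totals without TMM factors. Of the 3161 long L1Md loci tested, 223 had such a mean, so that the recovery does not describe the others. The locus test recovered 94 of the 200 (log2 change 1.5, 8 false calls). Sums per element name recovered 176 (log2 change 0.5, 13 false calls) and sums by position 132 (log2 change 0.5, 19 false calls). The gene test recovered 200 (log2 change 1.5, 9 false calls). Replicates are separate embryos. The members and gene lists were chosen with earlier results of these data known. Named loci are, per subfamily, the one with most reads, each one past the threshold, and the 5 with the largest changes in each direction among loci with a mean of at least 10 reads whose groups do not overlap. Of the silencing genes, those without overlap are named, and others were named after their values were seen. Counts per library limit the precision of single loci.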

Additional observations from a re-analysis of the deposited data

Results flagged for a closer look

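In 5 of 48 sets of 4 Mutant libraries, 1 library stood apart from the other 3 by Dixon's criterion, which chance meets in about 1 in 20 sets. In long L1Md_F2 and L1Md_F3 loci on the other strand of a gene this was Mutant replicate 2, with 1131 CPM (the others 985 to 1004) and 225 CPM (the others 188 to 192). In long L1Md_Gf loci on the strand of a gene it was Mutant replicate 4, with 1.01 CPM. Of single loci, the L1Md_F2 copy at chr10:81731449-81737629 had 4.27 CPM in Mutant replicate 1, and the L1Md_F2 copy in Alms1 had 3.49 CPM in Mutant replicate 3, each the lowest of the group.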

How the results depend on the processing

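The rise of long L1Md_F2 loci outside genes passed under every alternative run. Other calls depended on the settings, and the causes were not tested. No long locus passed as higher with DESeq2, with library totals only, with a mean of at least 10 reads, without a filter, with a replicate block or at 0.05 (0 in each), and 0 passed as lower with DESeq2 or at 10 reads. Leaving out 1 library gave 0 to 1 higher and 0 to 2 lower. Over all loci, 375 passed, against 15 with DESeq2, 17 at 10 reads, 205 with the block and 193 to 617 without 1 library. Of sums per element name, 3 passed, against 11 with DESeq2, 1 with TMM or DESeq2 size factors and 0 to 14 without 1 library. By position, 61 passed, against 109 with TMM factors, which moved their median fold change from 0.02 to 0.09, 229 with 10 kb around genes as inside (chosen after seeing the data), 5 in loci averaging 1 read or more and 34 to 83 without 1 library.

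Whole sums passed for L1Md_F2 with DESeq2 (0.23), at 6000 bases or more (0.31) and without the most counted locus of the table in the totals (0.26, chosen after seeing the data), and for L1Md_F3 with DESeq2 (0.23). Without 1 library they ranged from 0.18 to 0.29 in L1Md_F2, from 0.23 to 0.28 in L1Md_F3 and from -0.00 to 0.19 in L1Md_A. In loci averaging 1 read or more, the L1Md_T sum was -0.04, and 1 of the 3 sums outside genes passed, with L1Md_T at 0.12 and L1Md_F3 at 0.44. L1Md_T outside genes was 0.43 with DESeq2 size factors (adjusted p = 0.104). Without 1 library, 2 to 4 sums by position passed, with ranges outside genes from 0.10 to 0.45 in L1Md_A, 0.40 to 0.54 in L1Md_T and 0.43 to 0.68 in L1Md_F, and 0 to 18 silencing genes.

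The ratio of long to shorter loci was -0.01 in L1Md_T, 0.21 in L1Md_F2, 0.17 in L1Md_F3 and 0.15 in all in loci averaging 1 read or more, -0.01 in L1Md_T and 0.15 in L1Md_F2 at 6000 bases, and 0.12 in L1Md_F2 and 0.06 in all without the top locus of each class, each of these at an unadjusted exact p of 0.0286 but for the L1Md_T values. Without 1 library it ranged from -0.22 to 0.02 in L1Md_A, -0.01 to 0.04 in L1Md_T and -0.00 to 0.10 in L1Md_F3. Outside genes it was 0.23 in L1Md_F3 and 0.31 in all at a mean of at least 1 read and -0.29 in L1Md_F with 10 kb, and without 1 library -0.05 to 0.04 in all, -0.08 to 0.15 in L1Md_F and -0.14 to 0.03 in L1Md_F3. With 10 kb it was -0.14 in all and -0.36 in L1Md_F3 (exact p = 0.0286). The ratio outside to inside genes in L1Md_Gf ranged from -0.09 to 0.40 without 1 library. Ratios in loci averaging 1 read or more only describe the loci that passed, since a locus can pass through the group where it is high.

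Inside genes, signs turned. On the other strand, TMM factors gave 0.03 in L1Md_A, 0.00 in L1Md_T, 0.04 in L1Md_F2 and 0.05 in L1Md_F3, and 0.03 in L1Md_A on the strand of a gene. With 10 kb, L1Md_A was 0.00, L1Md_F3 0.06 and L1Md_Gf -0.11 on the other strand and L1Md_F 0.16 on the strand of a gene. At a mean of at least 1 read L1Md_T and L1Md_F3 were -0.04 and -0.03 on the strand of a gene and L1Md_Gf -0.03 on the other strand, where it was -0.02 with DESeq2 and with its size factors and -0.27 with the block. Without 1 library the other strand ranged from -0.11 to 0.03 in L1Md_A, -0.12 to 0.01 in L1Md_T, -0.10 to 0.03 in L1Md_F2, -0.09 to 0.04 in L1Md_F3 and -0.25 to 0.25 in L1Md_Gf, and the strand of a gene from -0.00 to 0.08 in L1Md_F2 and -0.02 to 0.10 in L1Md_F3. Single values that turned were Dnmt3l (-1.82 to 0.07) and the copies at chr7:66943420-66948835 (-0.28 to 0.27), chr8:85977995-85983030 (-0.46 to 0.17) and chr13:9832021-9838665 (-0.39 to 0.40).

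Replicate numbers did not pair the libraries, with correlations of 0.03, -0.07 and 0.02 between same-numbered libraries over 60909 loci. With a replicate block the 3 sums outside genes passed, and the L1Md_F2 whole sum was 0.23 (adjusted p = 0.1). Depth limits single loci, since 223 of the 13417 had a mean of at least 10 reads.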
